A study of Mus musculus with 12 samples.

Results

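In newborn mouse lung, the genes of the proteasome leaned upward under hyperoxia in both genotypes. Of 46 such genes, 40 were at a higher mean in WT HO than in WT RA and 38 in SK HO than in SK RA, mostly by small amounts, with a median log2 difference of 0.28 and 0.26. The lid subunit Psmd8 and the catalytic subunit Psmb5 stood at the top in both genotypes. Both passed the test in WT mice, along with Psmd4, Psmb6 and Psma6, and no member passed it in SK mice or in any comparison between the genotypes.

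The proteasome is the protease that breaks down proteins tagged with ubiquitin, including those damaged by oxidation. Its 20S core is a barrel of stacked alpha and beta rings, with the cutting sites on the inner face of the beta rings, and its 19S cap recognises, unfolds and feeds in the substrate through a ring of ATPases and a set of other subunits. In mammalian cells a shortage of proteasome activity raises the subunit genes together through the factor NRF1 (gene Nfe2l1), which binds antioxidant response elements with a small Maf partner, while the related factor NRF2 (gene Nfe2l2) is known for its part in the defence of the lung against oxygen.

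The members are all genes whose platform symbol starts with Psma, Psmb, Psmc, Psmd, Psme, Psmf or Psmg and a digit, except the immunoproteasome genes Psmb8, Psmb9 and Psmb10, with 1 transcript per symbol (the brightest by its mean on the 12 arrays). This gave 46 of the 22180 genes with a symbol of their own on the array. The rule picks genes by symbol alone, and measured values enter only in the choice of the transcript. Of these, 7 code for the 20S alpha ring, 8 for the 20S beta ring, 6 for the 19S ATPase ring, 11 for other 19S subunits, 6 for other activators, an inhibitor and a binding partner, and 7 for assembly factors. The last, Psmc3ip, is a recombination factor that shares only the letters of the symbol. The alpha subunit gene Psma4 is not among them, because its rows on the array carry several symbols. Psma5 and the thymus-restricted Psmb11 lay under the median of all transcripts on all 12 arrays, so these 2 dim genes carry little weight, and the germ cell form Psma8 and the chaperone Psmg4 were close to that median.

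The arrays, Affymetrix MoGene 2.0 ST, held RNA from 1 lobe per mouse (the superior one on the right side) of 12 mice in 4 groups of 3. WT pups, and pups labelled SphK-1 KO (sphingosine kinase 1 knockout, written SK), lived in room air as the groups WT RA and SK RA or, starting on postnatal day 1, spent 7 days at 75% oxygen as the groups WT HO and SK HO, with litters held to at most 6 pups and the dams moved between air and oxygen each day. The methods describe male pups, with the knockout line crossed to C57BL/6 for only a pair of generations and WT mice of the same mixed background as controls. Which pups shared a litter is not given, so the p-values measure the spread between these mice, and 3 arrays per group set the precision.

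Several facts of the arrays touch the results below. The Sphk1 transcript was at log2 values of 5.37, 4.90 and 5.40 in WT RA, 5.59, 5.78 and 5.84 in SK RA, 6.79, 7.50 and 7.04 in WT HO, and 5.70, 6.28 and 5.57 in SK HO. It was thus not lower in the SK than in the WT mice in room air. The position of its probes with respect to the deletion was not found, so the gene checks no label, and SK below means the arrays so labelled. The arrays SK RA 1 and SK HO 1 stood apart from the others, with a median log2 value of 4.99 and 4.89 against 4.76 to 4.85, and a median correlation with their own group of 0.963 and 0.964 against 0.969 to 0.981. The 3 measured Y-linked genes were high on arrays 1 and 2 of SK HO, array 1 of SK RA and array 3 of WT RA and low on the other 8 arrays, although the pups are described as male. The samples were lung by their markers, with the surfactant gene Sftpc at 12.59 to 13.40 on all arrays and the alveolar gene Ager at 11.18 to 12.06. Markers of other tissues differed between arrays. The mean of 8 adipocyte genes, each relative to its own mean, was 1.35 on SK RA 1 and 1.32 on WT HO 2. It was -0.57 to 0.29 on the other arrays. The mean of 7 cardiac muscle genes ran from -1.10 on WT HO 1 to 1.02 on SK RA 1. The part of such tissue in the values below was not tested.

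The stretches before the start sites of 3 of the called genes are shown because Psmd8 and Psmb5 lead the results and because Psmb5 and Psmb6 hold the letters of an antioxidant response element. They are the 250 bases before the RefSeq start, 5′ to 3′ on the strand of the gene, build GRCm38.p6, and lie at chr7:29180674-29180923 on the minus strand for Psmd8, chr14:54617996-54618245 on the minus strand for Psmb5, and chr11:70525107-70525356 on the plus strand for Psmb6. Capitals mark the core of the antioxidant response element (TGACNNNGC), the NF-Y box (CCAAT) and the core of the heat shock element (GAANNTTC), each searched on both strands.
Psmd8: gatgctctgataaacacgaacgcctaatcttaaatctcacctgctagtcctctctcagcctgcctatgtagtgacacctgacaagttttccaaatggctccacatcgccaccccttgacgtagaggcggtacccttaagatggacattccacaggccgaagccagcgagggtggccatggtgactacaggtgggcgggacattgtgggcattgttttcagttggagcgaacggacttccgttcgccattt
Psmb5: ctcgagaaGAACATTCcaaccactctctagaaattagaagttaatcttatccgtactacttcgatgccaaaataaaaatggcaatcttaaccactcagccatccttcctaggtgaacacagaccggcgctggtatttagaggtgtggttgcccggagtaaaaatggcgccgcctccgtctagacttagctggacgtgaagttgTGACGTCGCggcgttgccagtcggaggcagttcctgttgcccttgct
Psmb6: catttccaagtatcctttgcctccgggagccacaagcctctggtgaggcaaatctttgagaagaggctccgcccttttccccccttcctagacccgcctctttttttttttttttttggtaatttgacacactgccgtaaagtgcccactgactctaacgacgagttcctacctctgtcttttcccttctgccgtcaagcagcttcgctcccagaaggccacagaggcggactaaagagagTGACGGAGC
In Psmb5 the capitals are a heat shock element core at -242 and an antioxidant response element core at -47 from the start. In Psmb6 the antioxidant response element core begins at -9, and Psmd8 has none of the 3 motifs here.

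The same motifs were looked for in windows of 300 bases, from 250 before to 50 after the start, which RefSeq gave for 38 of the 46 members (42 windows, since some genes have several starts). TGACNNNGC was in 6 of the 42 windows (14.3%), those of Psmb5, Psmb6, Psmc6, Psmd12, Psmd9 and Psme4, against 12.4% of all 32851 windows. CCAAT was in 15 of them (35.7%) against 37.4%, among them Psmd4 at -95, 2 and 21 and Psma6 at -136 and -29. GAANNTTC was in the windows of 2 members, Psmb5 and Psmf1 (4.76% against 7.86%). These shares lay near those of all promoters, and the letters TGACNNNGC overlap with the start of AP-1 and CRE motifs, so a match is a description only.

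The first comparison asks what hyperoxia did in WT lungs. Psmd8, a lid subunit that the 19S cap needs for its assembly, was at log2 values of 9.32, 9.62 and 9.51 in WT RA and at 10.49, 10.58 and 10.43 in WT HO. It rose by 1.02 (SE 0.17, n = 3 per group, limma adjusted p = 0.00176), which is 2.02-fold. The 3 WT HO arrays lay above all 3 WT RA arrays, by a gap wider than the range within either group.

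Psmb5, which carries the chymotrypsin-like site of the core and is the target of the drug bortezomib, was at 8.18, 8.44 and 8.32 in WT RA and at 9.09, 9.55 and 9.18 in WT HO. It rose by 0.96 (SE 0.21, adjusted p = 0.00943), or 1.95-fold, with no overlap of the groups. Psmb6, which carries the caspase-like site, was at 7.47, 7.49 and 7.46 in WT RA and at 7.93, 8.18 and 8.10 in WT HO, a rise of 0.60 (SE 0.16, adjusted p = 0.0283). For Psmb7, which carries the trypsin-like site, the difference was 0.36 (SE 0.17, adjusted p = 0.224), and WT RA 3 at 8.58 lay above WT HO 1 at 8.52. Of the genes of the 3 cutting sites, 2 passed the test in WT mice, beside 8.58% of all transcripts called higher. Psmb7 was chosen after its values were seen, and the call of Psmb6 was lost under 6 of 23 alternatives, so the count is a description only.

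Psmd4, a ubiquitin receptor of the cap, was at 7.38, 7.48 and 7.61 in WT RA and at 8.09, 8.20 and 8.03 in WT HO. It rose by 0.62 (SE 0.15, adjusted p = 0.0175). Psma6, an alpha ring subunit, was at 7.57, 8.05 and 8.16 in WT RA and at 8.48, 8.60 and 8.49 in WT HO, a rise of 0.60 (SE 0.18, adjusted p = 0.0489). The low WT RA 1 array widened both the spread and the difference of Psma6, which was 0.42 and not called without that array. With all arrays its call stood just inside the threshold. Just outside it was the lid subunit Psmd11, which stabilises the bond between cap and core, at a difference of 0.57 (SE 0.18, adjusted p = 0.0541).

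**Figure D1:**
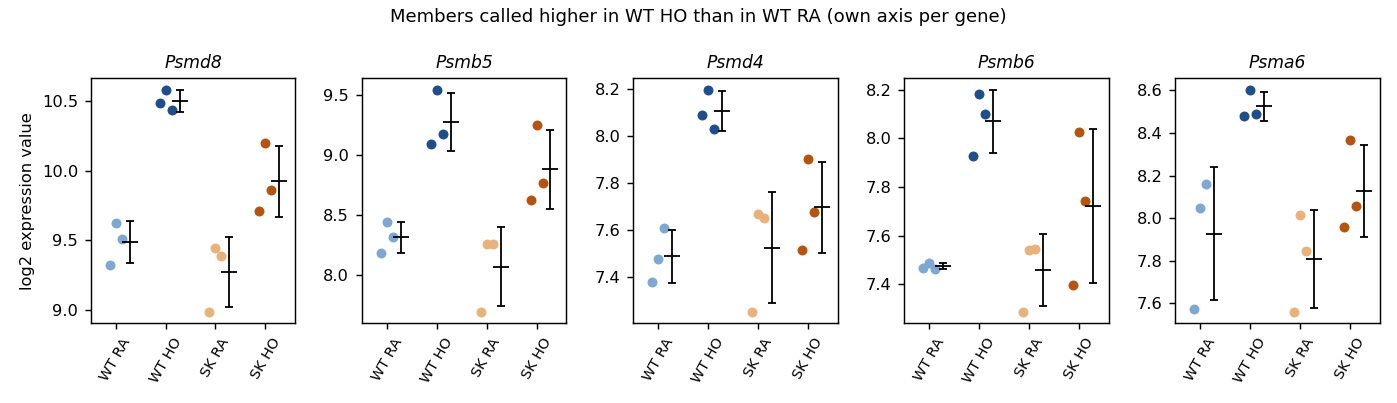
Log2 expression values (y axis, own range per gene) of the 5 members called higher in WT HO than in WT RA, in the 4 groups (x axis). Points are mice, horizontal bars the group mean and vertical bars the SD of 3 mice, and in each gene the 3 WT HO points lie above the 3 WT RA points, for Psmd8 at 10.43 to 10.58 against 9.32 to 9.62.

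These 5 are 10.9% of the members, and 0 members were called lower in WT HO against WT RA. Over all 41345 transcripts 14.9% were called in this comparison, 8.58% higher and 6.35% lower, so the share of called members is near the background and is no result about the family. More of the members than of all transcripts leaned the same way by a small amount. All 3 WT HO arrays lay above all 3 WT RA arrays for 23 of the 46 members (50%) against 18.9% of all transcripts, and the reverse held for 0 members against 15.4%. At an unadjusted p under 0.05, 14 members were higher and 0 lower, beside 6215 and 4791 of all 41345 transcripts. The median of 0.28 stood beside a median of 0.01 over all transcripts. The call of Psmd8 and that of Psmb5 held with each array left out in turn, that of Psmd4 was lost (adjusted p up to 0.0704) without WT RA 1, WT RA 2 or WT HO 2, that of Psmb6 (up to 0.102) without any 1 of the WT RA arrays, WT HO 2 or WT HO 3, and that of Psma6 (up to 0.182) in 9 of the 12 cases. The count of called members was then 2 to 9, with 2 without WT RA 1, WT RA 2 or WT HO 2, 3 without WT HO 3 and 9 without SK HO 2. Since the arrays measure whole lung, a change in the RNA per cell and a change in the cells that make up the lobe cannot be told apart.

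**Figure D2:**
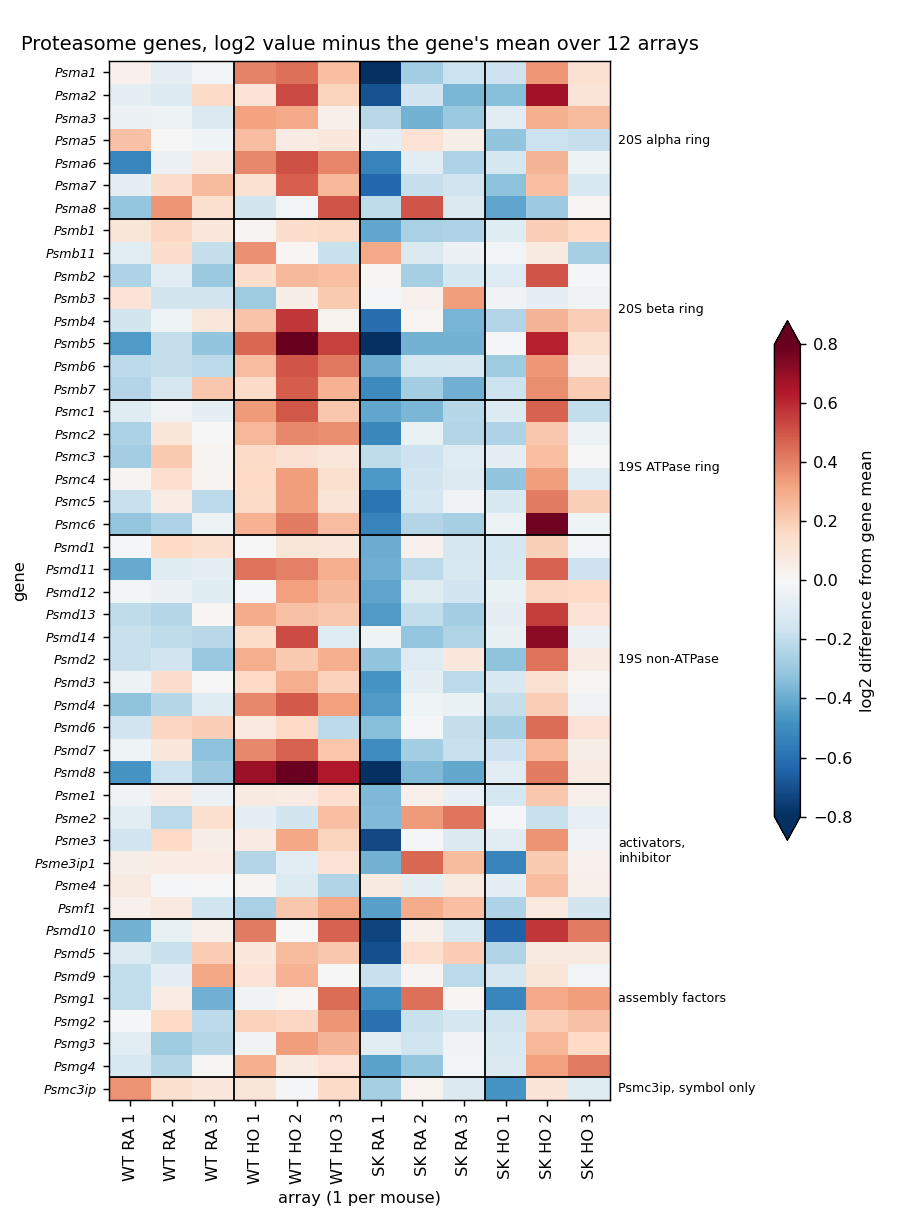
Log2 value of each of the 46 genes (rows, grouped by role) minus its mean over the 12 arrays, on each array (columns, 1 per mouse), from blue (lower) to red (higher). The WT HO columns are mostly red from the alpha ring to the 19S subunits, with 0 members called lower there, the SK RA 1 column is the bluest, and the rows of the activators show no common pattern.

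By role, the upward lean covered the core and the cap. The counts of calls by role stand beside 8.58% of all transcripts called higher, and each role group is small. In the 20S alpha ring 7 of 7 differences were positive (median 0.28) and 1 was called, and in the beta ring 7 of 8 were positive (median 0.33) and 2 were called. The exception in the beta ring was the non-catalytic subunit Psmb1, which was at 9.72, 9.79 and 9.72 in WT RA and 9.65, 9.77 and 9.78 in WT HO (difference -0.01, SE 0.12). Psmb3 and the dim Psmb11 also had overlapping groups, with differences of 0.05 and 0.11.

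In the 19S ATPase ring, whose 6 subunits thread the substrate into the core, 6 of 6 differences were positive (median 0.35) with 0 called. The groups did not overlap for 4 of them, Psmc1, Psmc2, Psmc5 and Psmc6, beside 18.9% of all transcripts with all WT HO arrays higher. Psmc2 is 1 of 3 members with another transcript on the array. That dimmer transcript (mean 5.92) had overlapping groups, with a difference of 0.09 in WT and -0.18 in SK mice. Psmc6 was at 8.96, 9.03 and 9.24 in WT RA and 9.55, 9.68 and 9.52 in WT HO, a difference of 0.51 (SE 0.21, adjusted p = 0.135). The other 19S subunits had the highest median of the role groups, 0.39, with 9 of 11 positive, 2 called and 9 with no overlap of the groups. Beside these counts, 8.58% of all transcripts were called higher and 18.9% had all WT HO arrays above all WT RA arrays. The 2 below 0 were the scaffold subunit Psmd1 at -0.03 and the lid subunit Psmd6 at -0.06.

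The assembly factors, chaperones that bring the rings and the base together and leave the finished particle, had 7 of 7 positive differences in WT mice (median 0.27) and 0 called. The largest was that of Psmd10 (gankyrin, which binds the ATPase Psmc4), at 0.43 (SE 0.31, adjusted p = 0.431), with WT RA values of 6.34, 6.65 and 6.75 and WT HO values of 7.12, 6.71 and 7.19 that overlapped. The next, Psmg3 of the ring-building chaperones, was at 5.84, 5.65 and 5.70 in WT RA and at 5.91, 6.26 and 6.20 in WT HO (difference 0.39, SE 0.14, adjusted p = 0.0957), with no overlap.

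The other activators and the inhibitor had smaller differences. The PA28 subunit genes Psme1 and Psme2, the nuclear form Psme3, the large activator Psme4, the inhibitor Psmf1 and Psme3ip1, a partner of the nuclear form, had differences of -0.13 to 0.17 in WT mice, with a median of 0.08 and 0 called. In SK mice the same 6 ran from -0.23 to 0.37 with a median of -0.04. The difference between this group and the subunits was not tested, and Psmc3ip, which is no part of the proteasome, was at -0.11 in WT and -0.04 in SK mice.

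**Figure D3:**
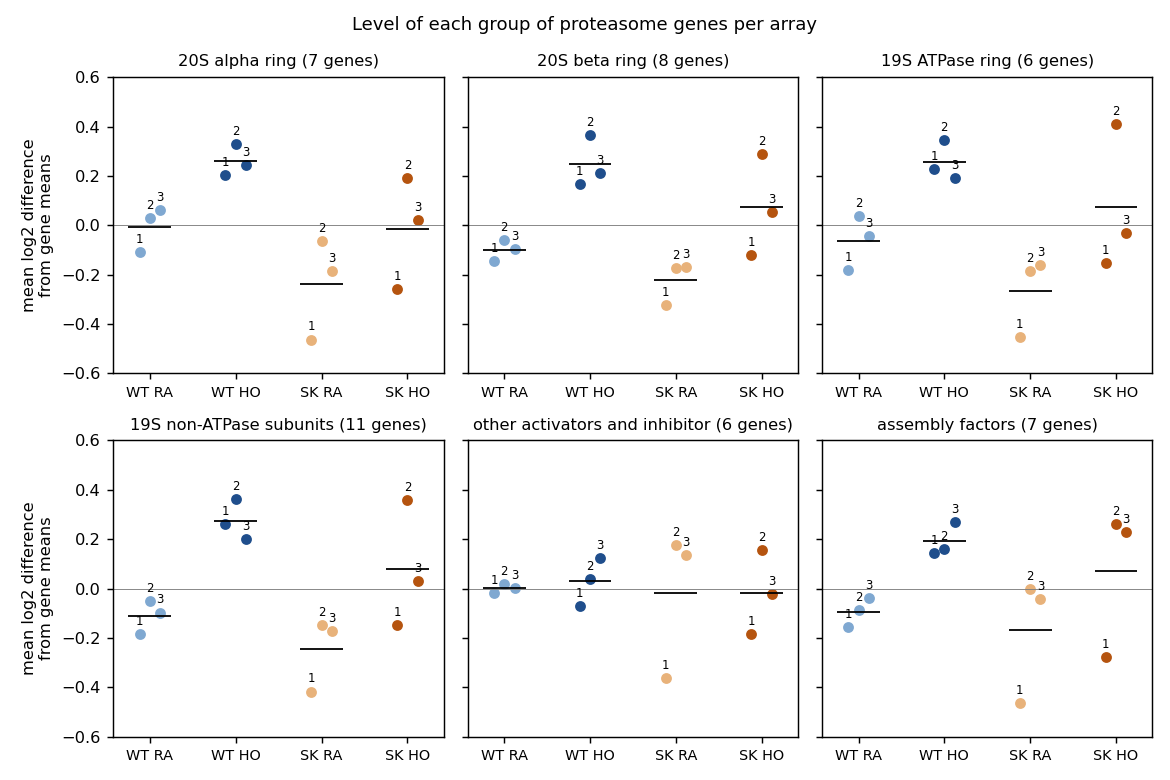
Mean log2 difference from the gene means (y axis) for each role group of members on each array, with the replicate number beside each point and the group mean as a bar, in the 4 groups (x axis). In the 4 groups of core and cap genes the WT HO points lie above the WT RA points, whereas for the activators and inhibitor they overlap and span -0.07 to 0.12.

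The second comparison asks the same of the SK lungs, where 0 members were called in either direction against 2.34% of all transcripts (1.02% higher and 1.32% lower). Yet 38 of 46 differences were positive, and the median was 0.26 against -0.0033 over all transcripts. At an unadjusted p under 0.05, 15 members were higher and 0 lower, beside 2708 and 3089 of all 41345 transcripts. All 3 SK HO arrays lay above all 3 SK RA arrays for 12 members (26.1%, against 8.03% of all transcripts) and below them for 2 (4.35%, against 9.1%), Psma5 and Psmb3.

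Psmb5 was at 7.69, 8.26 and 8.26 in SK RA and at 8.63, 9.25 and 8.76 in SK HO. The difference of 0.81 (95% interval 0.35 to 1.28, adjusted p = 0.0743) was the largest of the members in SK mice, and the groups did not overlap. Psmd8 followed, at 8.98, 9.44 and 9.39 in SK RA and 9.71, 10.20 and 9.86 in SK HO, a difference of 0.65 (95% interval 0.28 to 1.02, adjusted p = 0.072), again with no overlap. Neither passed the threshold, and these 2 genes ranked first in WT mice too, in the reverse order.

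The other 3 called genes had smaller and overlapping differences in SK mice. Psmd4 was at 7.25, 7.67 and 7.65 in SK RA and 7.52, 7.90 and 7.68 in SK HO (0.17, 95% interval -0.16 to 0.51). Psmb6 was at 7.29, 7.54 and 7.55 against 7.40, 8.03 and 7.74 (0.26, 95% interval -0.09 to 0.62), and Psma6 at 7.56, 8.01 and 7.85 against 7.96, 8.37 and 8.06 (0.32, 95% interval -0.08 to 0.72). For each, the array with replicate number 1 was the lowest of its group.

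Instead, Psmc6 (0.58, SE 0.21, adjusted p = 0.204) and the alpha subunits Psma2 (0.55, SE 0.24, adjusted p = 0.326) and Psma1 (0.54, SE 0.19, adjusted p = 0.198) came next in SK mice. Psma1 was at 7.11, 7.70 and 7.81 in SK RA and at 7.81, 8.32 and 8.10 in SK HO, which just separated the groups. Across roles, 5 of 7 alpha, 6 of 8 beta, 6 of 6 ATPase, 11 of 11 other 19S and 7 of 7 assembly genes had a positive difference in SK mice. Psmb1, flat in WT mice, was at 9.21, 9.37 and 9.38 in SK RA and 9.53, 9.83 and 9.78 in SK HO (0.39, SE 0.12, adjusted p = 0.134).

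Of the 46 members, 34 had a positive difference in both genotypes (73.9%, against 27.7% of all transcripts), 6 in WT mice only and 4 in SK mice only. For 9 of them all HO arrays lay above all RA arrays in both genotypes, namely Psma1, Psma3, Psmb5, Psmc1, Psmc6, Psmd7, Psmd8, Psmd12 and Psmd13. The share of all transcripts with this pattern was not computed, so the count is no result about the family. The correlation of the WT and SK differences across the 46 members was 0.653, against 0.186 across all transcripts. It is a description across genes measured on the same 12 arrays, which are not independent of each other.

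**Figure D4:**
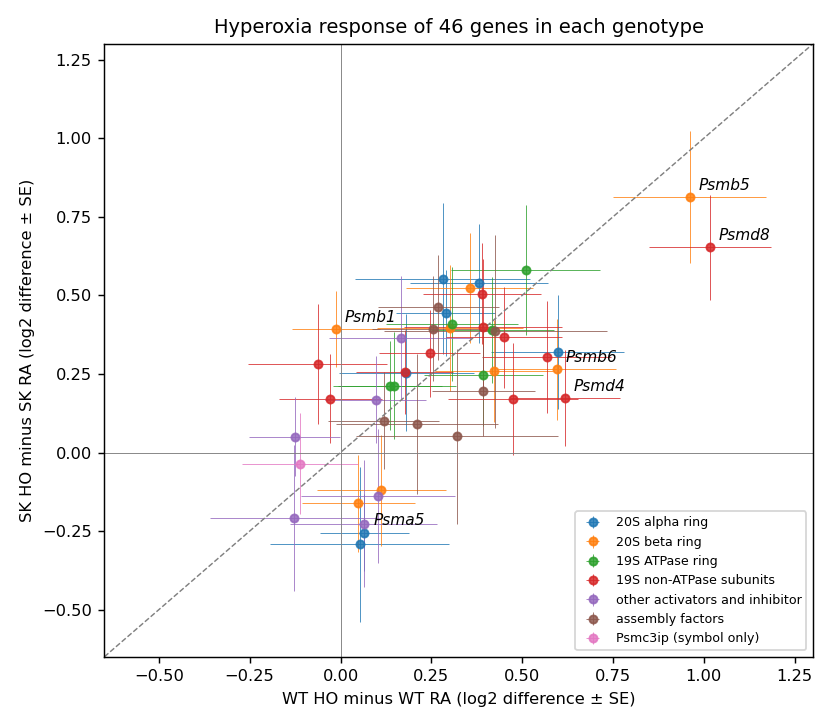
Log2 difference between HO and RA in WT mice (x axis) and SK mice (y axis) for the 46 genes, coloured by role, with bars of 1 SE and the line of equal response dashed. Most points lie in the upper right quadrant (34 of 46), with Psmb5 and Psmd8 farthest out.

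The test of the difference between the genotypes in their response to oxygen, the interaction (SK minus WT), called 0 members, against 4.79% of all transcripts (2.19% higher and 2.6% lower). Its median over the members was -0.0053, with 23 positive and 23 negative. At an unadjusted p under 0.05, 3004 of all 41345 transcripts were higher and 4063 lower, and of the members 1 was higher and 0 lower. That member was Psmb1 at 0.41 (95% interval 0.03 to 0.78, adjusted p = 0.247). For Psmd8 the interaction was -0.36 (95% interval -0.88 to 0.16) and for Psmb5 -0.15 (95% interval -0.80 to 0.51). For Psmd4, the lowest of all, it was -0.44 (95% interval -0.91 to 0.03, adjusted p = 0.327). The interval of Psmb1 lay above 0, toward a larger response in SK mice, and those of Psmd8, Psmb5 and Psmd4 included 0 and reached far below it, so the data do not show that the genotypes respond alike.

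In room air the members leaned lower in the SK than in the WT mice, with 33 of 46 differences below 0, a median of -0.14 against 0.01 over all transcripts, and 0 called against 1.15% of all transcripts (0.556% higher and 0.59% lower). At an unadjusted p under 0.05, 3 were lower and 0 higher, namely Psma7 (-0.43, SE 0.19, adjusted p = 0.355), Psmb1 (-0.43, SE 0.12, adjusted p = 0.143) and Psma1 (-0.42, SE 0.19, adjusted p = 0.388). Of all 41345 transcripts 2076 were lower and 3239 higher at that level, so the count of 3 is near the background and is no result about the family. All SK RA arrays lay below all WT RA arrays for 10 members (21.7%, against 8.63% of all transcripts), 6 of them in the 20S core. Psma7, an alpha subunit, was at 8.69, 8.91 and 9.02 in WT RA and at 8.13, 8.58 and 8.60 in SK RA, and Psmb1 was at 9.72 to 9.79 against 9.21 to 9.38. The median was -0.06 without SK RA 1, -0.22 without SK RA 2 and -0.04 on the arrays with low Y-linked genes. Without SK RA 1 (and SK HO 1), 6 members lay higher and 11 lower on both SK RA arrays than on all WT RA arrays, against 19.1% and 15.7% of all transcripts.

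In hyperoxia 42 of 46 members were at a higher mean in the WT than in the SK mice, with a median of 0.15 against 0.01 over all transcripts, and 0 called against 5.74% of all transcripts (2.92% higher and 2.82% lower). The largest difference was that of Psmd8, 0.58 (SE 0.17, adjusted p = 0.0723), with WT HO at 10.43 to 10.58 and SK HO at 9.71 to 10.20. Next came Psmd4 at 0.41 (SE 0.15, adjusted p = 0.168), Psma6 at 0.40 (SE 0.18, adjusted p = 0.28) and Psmb5 at 0.39 (SE 0.21, adjusted p = 0.372). The groups did not overlap, with WT HO the higher, for 7 members (15.2%), close to the 12.8% of all transcripts, so little can be read from this count. The median fell to 0.03 without SK HO 1 and was 0.27 without SK HO 2. The Y-linked genes were low on all WT HO arrays and high on SK HO 1 and SK HO 2. Genotype and Y-linked level thus largely went together here and cannot be fully told apart. This comparison and the 2 responses to oxygen share arrays, so their values are given side by side and not as separate evidence.

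The level of the core and cap as a whole is the mean over 30 genes of both, each relative to its own mean. It leaves out the tissue-restricted Psma8 and Psmb11 and keeps the dim Psma5. This level was -0.15, -0.04 and -0.05 in WT RA and 0.23, 0.38 and 0.21 in WT HO. In SK RA it was -0.44, -0.17 and -0.18, and in SK HO -0.16, 0.34 and 0.03. WT HO lay above WT RA on every array, and each SK group held 1 low array, SK RA 1 and SK HO 1, the same arrays that stood apart in their medians. Without both arrays, 30 of 46 members lay higher and 6 lower in all SK HO than in all SK RA arrays, against 23.5% and 22.8% of all transcripts, which is a comparison of 2 mice with 2. Without them the test, then fitted on 10 arrays, called 8 members higher in WT HO than WT RA, with 10.7% of all transcripts.

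The regulators of the proteasome genes, a list of 10 of which 9 were measured, had a median difference of 0.59 in WT mice. In WT HO against WT RA 6 of the 9 rose and 0 fell, beside 8.58% and 6.35% of all transcripts, and in SK HO against SK RA 0 of 9 were called, beside 1.02% higher and 1.32% lower. Nfe2l1, the gene of NRF1, was at 7.90, 7.85 and 7.95 in WT RA and at 8.29, 8.33 and 8.40 in WT HO, a rise of 0.44 (SE 0.11, adjusted p = 0.02, and 0.057 to 0.0727 when array 1 or 2 of WT RA or array 2 or 3 of WT HO was left out and 0.0552 after a further quantile normalization). In SK mice it was at 7.94, 7.86 and 8.02 in air and 8.07, 8.17 and 8.27 in oxygen (0.23, SE 0.11, adjusted p = 0.394). NRF1 is controlled largely after its mRNA is made, which these arrays do not see.

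Nfe2l2 was at 8.89, 9.01 and 9.08 in WT RA and at 9.65, 9.68 and 9.86 in WT HO, a rise of 0.74 (SE 0.14, adjusted p = 0.00476). Ngly1, the enzyme that trims sugars from NRF1 on its way to activity, rose by 0.68 (SE 0.15, adjusted p = 0.00872), and was at -0.12 in SK mice, with an interaction of -0.79 (SE 0.21, adjusted p = 0.0529). The small Maf partners Maff, Mafk and Mafg rose by 1.57, 0.93 and 0.59. Of the segregase that pulls NRF1 out of the endoplasmic reticulum, Vcp, Ufd1 and Nploc4 were measured, with WT differences of -0.13, 0.31 and 0.30 that were not called.

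Of the 9 measured genes of this list, Maff and Mafk passed the test of the interaction, beside 4.79% of all transcripts (2.19% higher and 2.6% lower). Maff was at 6.00, 5.76 and 5.89 in WT RA and 7.28, 7.57 and 7.52 in WT HO, but at 6.17, 6.21 and 6.20 in SK RA and 6.33, 6.97 and 6.68 in SK HO. Its interaction was -1.11 (SE 0.23, adjusted p = 0.0179), and in hyperoxia it was 0.80 higher in WT mice (SE 0.16, adjusted p = 0.0146). That call was lost without WT HO 2, WT HO 3, SK HO 1 or SK HO 3 (adjusted p up to 0.066), with the Y-linked level added as a covariate (0.0518), on the groups compared alone (0.0883) and on the arrays with low Y-linked genes (0.0784). For Mafk, at 7.22, 6.84 and 7.11 in WT RA, 8.18, 7.93 and 7.85 in WT HO, 7.08, 7.52 and 7.53 in SK RA and 7.34, 7.33 and 7.26 in SK HO, the interaction was -0.99 (SE 0.23, adjusted p = 0.0289). The SK HO arrays of Mafk lay within the range of the SK RA arrays. The interaction call of Maff was lost without WT RA 2 or WT HO 2 (adjusted p up to 0.0529) and that of Mafk without 8 of the 12 arrays, taken singly (up to 0.0766), with the size staying between -1.26 and -0.94 for Maff and between -1.14 and -0.89 for Mafk.

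**Figure D5:**
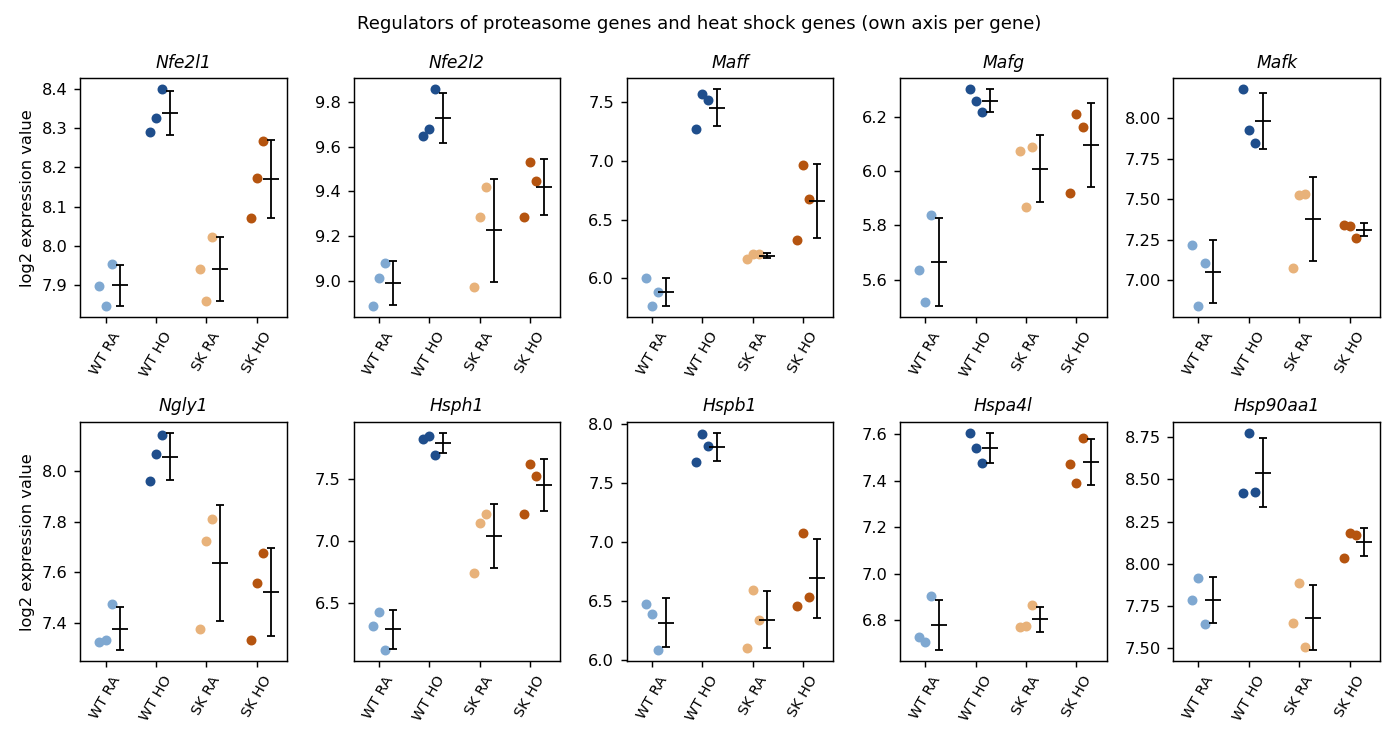
Log2 expression values (y axis, own range per gene) of 6 regulators of proteasome genes and 4 heat shock genes in the 4 groups (x axis). Points are mice, horizontal bars the group mean and vertical bars the SD of 3 mice, and the WT HO points lie above all WT RA points in each gene, while for Mafk the SK HO points (7.26 to 7.34) lie within the range of SK RA (7.08 to 7.53).

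The cytosolic heat shock genes, which code for chaperones that hold and refold damaged proteins, were also called mostly in WT mice. Of 9 measured, 7 rose in WT HO against WT RA and 0 fell, beside 8.58% and 6.35% of all transcripts, namely Hsph1 (1.51), Hspb1 (1.49), Hspa1a (1.12), Hspa1b (0.91), Hsp90aa1 (0.76), Hspa4l (0.76) and Bag3 (0.49). In SK mice 1 of the 9 passed the test (beside 2.34% of all transcripts), Hspa4l, which was at 6.77, 6.78 and 6.87 in SK RA and 7.47, 7.39 and 7.59 in SK HO (0.68, SE 0.11, adjusted p = 0.0107). Hspa1a and Hspa1b are near-identical copies, so their separate values are uncertain. With single arrays left out the calls of Hspa1b and Bag3 were lost in 7 and 8 of the 12 cases (adjusted p up to 0.13 and 0.132), that of Hspa1a without WT RA 1 or WT RA 2, and that of Hspa4l in SK mice was lost on the groups compared alone (adjusted p = 0.132), without SK RA 1 and SK HO 1 (0.0502) and on the arrays with low Y-linked genes (0.143), which hold 1 SK HO array.

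The interaction was called for 2 of the 9 heat shock genes, beside 4.79% of all transcripts (2.19% higher and 2.6% lower). Hsph1 was at 6.31, 6.43 and 6.11 in WT RA and 7.83, 7.85 and 7.70 in WT HO, against 6.74, 7.15 and 7.22 in SK RA and 7.21, 7.62 and 7.53 in SK HO, an interaction of -1.09 (SE 0.23, adjusted p = 0.0197). Part of this lay in room air, where Hsph1 was 0.75 higher in the SK mice (SE 0.16, adjusted p = 0.0548). Hspb1 had an interaction of -1.14 (SE 0.27, adjusted p = 0.035) and in hyperoxia was 1.11 higher in WT mice (SE 0.19, adjusted p = 0.00589), with SK HO at 6.46, 7.07 and 6.53 against 7.68, 7.91 and 7.81 in WT HO. Leaving out single arrays ended the interaction call in 5 of 12 cases for Hsph1 (adjusted p up to 0.0545) and in 10 of 12 for Hspb1 (up to 0.088). The values were then -1.24 to -0.97 and -1.33 to -1.02. Over all alternatives the size for Hspb1 was less stable, at -1.33 to -0.66 for the interaction. Its rise in WT mice was 0.82 to 1.57 and its difference in hyperoxia 0.74 to 1.31. The interaction call of Hspb1 was also lost with the mean of all transcripts of a gene.

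Proteins that bind the proteasome but lie outside the symbol rule also leaned upward. Of 16 listed, 13 were measured, 11 had a positive difference in WT mice (median 0.33, beside 0.01 over all transcripts) and 2 rose. These 2 are 15.4% of the list, beside 8.58% of all transcripts called higher and 14.9% called in either direction, so the count of calls is no result about the list. Usp14, a deubiquitinase of the cap, was at 7.58, 7.85 and 7.42 in WT RA and 8.20, 8.36 and 8.17 in WT HO (0.63, SE 0.18, adjusted p = 0.0413). Txnl1, a thioredoxin-like protein bound to the cap, was at 8.69, 8.93 and 8.79 in WT RA and 9.41, 9.62 and 9.24 in WT HO (0.62, SE 0.17, adjusted p = 0.0263). Without single arrays the call of Usp14 was lost in 7 of 12 cases (adjusted p up to 0.133) and that of Txnl1 without array 1 or 3 of WT RA or array 1 or 2 of WT HO (up to 0.106). In SK mice 0 of the 13 were called, with 11 positive and a median of 0.28. Of 7 ubiquitin and E1 genes only Uba6 and Uba7 were measured, and neither was called.

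The immunoproteasome subunits, which replace the catalytic subunits of the beta ring in immune cells and after interferon, had no call between oxygen and air. Psmb8, Psmb9 and Psmb10 had differences of 0.22, 0.22 and -0.03 in WT mice and -0.08, -0.43 and -0.31 in SK mice. In hyperoxia Psmb8 was at 7.67, 7.88 and 7.92 in WT and 7.17, 7.24 and 7.21 in SK mice, higher in WT by 0.62 (SE 0.15, adjusted p = 0.0404). It was the only call of the 3 in this comparison, beside 2.92% of all transcripts called higher. That call was lost under 14 of 23 alternatives. Among them were leaving out any 1 of 9 of the arrays (adjusted p up to 0.135), median centring, the Y-linked covariate and the groups compared alone. Psmb9 was higher by 0.95 (SE 0.27, adjusted p = 0.0732). The difference between these genes and Psmb5 to Psmb7 was not tested.

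Markers of cell types moved with all of these comparisons, and the part of the cell mix in the proteasome values was not tested. Levels of a marker list are the mean over its genes, on the scale used for the core and cap. The 9 proliferation genes were at 1.34 to 1.58 in WT RA, -1.63 to -1.51 in WT HO, -0.19 to 0.13 in SK RA and 0.04 to 0.29 in SK HO. All 9 fell with oxygen in WT mice and 0 were called by oxygen in SK mice, with all 9 called in the interaction. In SK mice all 9 were called lower than in WT mice under room air and higher under hyperoxia. The macrophage genes had 3 of 7 called higher in WT HO than in WT RA (Chil3, Cd68 and Marco). Csf1r and Lyz2 had lower means in WT HO (7.43 and 9.68) than in WT RA (7.92 and 9.79) and were not called. The levels of the list were -0.72 to -0.48 in WT RA, 0.53 to 0.86 in WT HO, -0.40 to 0.18 in SK RA and -0.29 to 0.36 in SK HO. They lean on Chil3, which had a WT difference of 4.66 and lay at 5.29 to 9.15 in SK HO, so they do not count macrophages. Of 7 mesenchyme markers 5 fell and 1 rose, and of 7 endothelium markers 3 fell, in WT HO against WT RA. In the same comparison 3 of 10 epithelium markers rose and 3 fell, and 2 of 8 neutrophil markers fell. There 3 of 5 B cell markers, 1 of 5 T cell markers and 2 of 8 adipocyte markers rose, and 2 of 7 cardiac muscle markers fell. Of all transcripts 8.58% were called higher and 6.35% lower there.

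In the SK mice, too, markers of several lists moved with oxygen, beside 1.02% of all transcripts called higher and 1.32% lower. In SK HO against SK RA, 4 of 5 T cell markers fell, with levels of 0.32 to 0.56 in SK RA and -0.58 to -0.36 in SK HO, and 2 of 5 B cell markers fell, with levels of 0.33 to 0.71 and -0.45 to -0.08. Of 7 mesenchyme and 7 endothelium markers 3 each fell, and 2 of 10 epithelium markers rose. The neutrophil markers had 8 of 8 positive differences, of which 2 were called, with levels of -0.75 to -0.35 in SK RA and 0.19 to 1.03 in SK HO. In room air 3 of 5 B cell markers were called higher in SK than in WT mice, beside 0.556% of all transcripts.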

How the data were processed

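RNA of 12 lungs was measured on 12 arrays, 3 per group, and the submitters' labels gave each array its group. The values are log2 expression values per transcript, which the authors made in Partek Genomics Suite 6.6 (a version from the submitters' processing notes) by the RMA method (background corrected, quantile normalized, probes summarized per transcript) and deposited as 1 table. Such normalization removes a shift shared by all transcripts of an array. Of 41345 transcripts, 23521 carry 1 gene symbol. All were tested with limma 3.58.1 in R 4.3.3 (1 mean per group over all 12 arrays, eBayes with 3.247 prior degrees of freedom, p-values adjusted over all transcripts by Benjamini-Hochberg). A called transcript has an adjusted p under 0.05. The test was checked on simulated data. Named genes are the called ones and, in each list, those with the largest difference or smallest p. Others, such as Psmd11, Psmb7, Psmb3, Vcp, the motif matches and markers, were chosen after their values were seen. The members and lists were chosen with earlier results of these data known. Promoter sequences are RefSeq's, build GRCm38.p6, and no build is known for the array annotation. The alternatives tried were another variance model, filter or scaling, all transcripts of a gene, a Y-linked covariate, the replicate number as a block, the compared groups only, and each array left out. Leaving out SK RA 1 with SK HO 1, and keeping only the 8 arrays with low Y-linked genes, were added after seeing the data.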

Additional observations from a re-analysis of the deposited data

Results flagged for a closer look

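The response to oxygen differed between the genotypes, by limma's test of the interaction, for 4 genes of the lists around the proteasome. They are 2 of 9 measured regulators and 2 of 9 measured heat shock genes. Of the 46 members 0 were called, beside 4.79% of all transcripts (2.19% higher and 2.6% lower), so the count of 0 says little about the family. For Maff, a small Maf partner of NRF1 and NRF2, the interaction (SK minus WT) was -1.11 (SE 0.23, adjusted p = 0.0179), from a log2 difference of 1.57 in WT and 0.47 in SK mice. For Mafk it was -0.99 (SE 0.23, adjusted p = 0.0289), from 0.93 and -0.07. For the chaperone Hsph1 it was -1.09 (SE 0.23, adjusted p = 0.0197), from 1.51 and 0.42, and for the small heat shock protein Hspb1 it was -1.14 (SE 0.27, adjusted p = 0.035), from 1.49 and 0.35.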

How the results depend on the processing

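In WT HO against WT RA, Psmd8 and Psmb5 were called under all 23 alternatives, whereas the call was lost under 3 for Psmd4, 6 for Psmb6 and 14 for Psma6. The 5 members called there became 3 with the arrays centred on their medians (7.34% of all transcripts called higher), 8 without SK RA 1 and SK HO 1 (10.7%), 8 on the 8 arrays with low Y-linked genes (10%), which hold 1 array of SK HO, and 2 to 9 when each array was left out in turn. The count was 2 without WT RA 1, without WT RA 2 or without WT HO 2 (5.81%, 6.07% and 5.9%), and 9 without SK HO 2 (9.07%). For the SK response, 0 members became 1 with an intensity trend and robust prior (1.37%), 2 with dim transcripts filtered (2.41%) and 1 after a further quantile normalization (1.27%), all of them Psmd8 or Psmb5, and stayed at 0 with any array left out. In WT HO against SK HO, 0 became 1 with the trend (3.25%), 1 with the filter (5.86%), and 0 to 2 with an array left out (1 without SK RA 1, with 3.54%, and 2 without SK HO 2, with 3.84%). The mice share only a replicate number, since no label ties it to a litter and the deviations of same-numbered arrays correlated at -0.061 to 0.398 (median 0.098), the lowest of them below 0, although with a higher median than those of differently numbered arrays, at -0.294 to 0.225 (median -0.055). With the replicate number as a block the counts of members called higher were 7 in WT mice, 2 in SK mice and 1 in WT HO against SK HO, where 9.53%, 1.27% and 3.46% of all transcripts were called higher. The median differences of the members kept their direction in the 4 comparisons of groups, at 0.20 to 0.30 in WT mice, 0.12 to 0.39 in SK mice, -0.22 to -0.04 in SK RA against WT RA and 0.03 to 0.27 in WT HO against SK HO, and the interaction median ran from -0.18 (without SK HO 2) to 0.14 with an array left out. Among the other genes the interaction call was lost under 3 of 22 alternatives for Maff, 6 for Hsph1, 11 for Mafk and 15 for Hspb1, and the call in WT HO against WT RA under 5 of 23 for Nfe2l1 and Txnl1 and 10 for Usp14, Hspa1b and Bag3, each with the direction kept. The call of Psmb8 in WT HO against SK HO was lost under 14 of 23, also with the direction kept.

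Of the single genes named, 11 small differences that were not called changed sign. In SK HO against SK RA these were Psmc3ip, at 0.0033 with median centring, 0.0177 with the Y-linked covariate and 0.0486 without SK RA 1 and SK HO 1 (-0.16 to 0.12 with an array left out), Uba7, at 0.0556 on the low Y-linked arrays, and Uba6, at -0.0938 without the 2 arrays and -0.0499 on the low Y-linked arrays (-0.13 to 0.21 with an array left out). In SK RA against WT RA they were Psmb9, at 0.0055 on the low Y-linked arrays, and Uba6 (-0.0207 to 0.42 with an array left out), and in WT HO against SK HO Uba7, at -0.2079 on the low Y-linked arrays (-0.0165 to 0.26). In the interaction they were Psmg1, at 0.0241 with the Y-linked covariate (-0.51 to 0.0108), Uba6, at -0.0346 without the 2 arrays (-0.0763 to 0.36), and Psmc3ip (-0.0534 to 0.23). In WT HO against WT RA they were Psmb9 (-0.0277 to 0.51) and Uba6 (-0.30 to 0.14). The values of SK HO on the low Y-linked arrays rest on 1 mouse, assumed to vary like the other groups. The cause was not tested. The standard errors of the members were 0.12 to 0.31 for a pair of groups and 0.17 to 0.43 for the interaction, which with 3 arrays a group limits the differences that can be called.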
